A study of Mus musculus with 2 samples.

Results

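Open chromatin was examined around 8 microRNA genes tied to the epithelial-mesenchymal transition (EMT): Mir200b, Mir200a, Mir429, Mir200c, Mir141, Mir205, Mir21 and Mir155. They were 8 of the 1577 microRNA genes annotated on the assembled chromosomes, and were listed by name. The measurements were DNaseI-seq peaks from NMuMG, a mouse cell line that grew out of normal mammary gland epithelium. In DNaseI-seq, nuclei are digested briefly with DNaseI and the short fragments released mark accessible DNA. Both groups came from the same line and first spent 6 h in medium lacking serum and insulin. One group (TGFβ 2 h) then received TGFβ1 at 5 ng/ml for 2 h, and the other (vehicle) received the carrier solution for 2 h. Each group is represented by 1 peak list, and these lists held 17784 (vehicle) and 22600 (TGFβ 2 h) distinct peaks. A distinct peak is 1 interval, whatever the number of rows that repeat it, and no source used here says what a repeat means. With 1 list per group the spread between replicates is unknown, so every difference below is a difference between a pair of lists and carries no test. Among a few marker genes, peaks lay within 1000 bp of a transcript start for 4 of 8 epithelial genes in each list. Cdh1 (E-cadherin), the keratins Krt8 and Krt18 and the splicing factor gene Esrp2 had such a peak, whereas Epcam, Cldn3, Cldn4 and Esrp1 did not. None of 6 genes of leukocytes, endothelium and muscle (Ptprc, Cd3e, Pecam1, Cdh5, Myod1, Des) had one. Whether the 4 epithelial genes without a peak were expressed in these cells was not measured here. The same share over all genes was not counted, so these marker counts do not establish the cell type.

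MicroRNAs are cut from hairpins inside longer primary transcripts, and the mature strand pairs through its seed with sites in target mRNAs. The miR-200 family and miR-205 are known for holding epithelial cells in place by repressing Zeb1 and Zeb2, the E-box binding repressors that silence E-cadherin. The ZEB proteins in turn repress the miR-200 genes, so that the pair forms a double-negative loop. miR-21 and miR-155 are known as microRNAs that rise when epithelial cells are given TGFβ. For miR-21 part of that rise occurs at hairpin processing, through SMAD proteins bound to the Drosha complex. For miR-155 the target RhoA links it to loss of cell junctions.

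The mature strands are shown because the seeds (bases 2 to 8, in capitals) define which of the 8 genes act on the same sites. All 8 hairpin sequences in the mm9 genome were identical to the RefSeq (GRCm38.p6) entries, from which the mature strands were taken.
mmu-miR-200b-3p: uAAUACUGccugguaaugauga
mmu-miR-429-3p: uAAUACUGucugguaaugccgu
mmu-miR-200c-3p: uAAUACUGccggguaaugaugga
mmu-miR-200a-3p: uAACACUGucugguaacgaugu
mmu-miR-141-3p: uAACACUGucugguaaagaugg
mmu-miR-205-5p: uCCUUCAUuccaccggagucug
mmu-miR-21a-5p: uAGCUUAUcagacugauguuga
mmu-miR-155-5p: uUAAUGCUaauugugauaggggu
The seed AAUACUG was shared by 3 members (Mir200b, Mir429 and Mir200c) and the seed AACACUG by 2 (Mir200a and Mir141). These seeds differ by 1 base, and each occurs at both genomic clusters of the family. Mir205, Mir21 and Mir155 each had a seed of their own.

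The 8 hairpins formed 5 clusters, since hairpins less than 10 kb apart were treated as 1 cluster. On mm9, Mir200b (chr4:155429790-155429859), Mir200a (chr4:155429005-155429094) and Mir429 (chr4:155428014-155428096) lay on the minus strand inside introns of Ttll10, a tubulin ligase family gene. They also lay inside the transcript Gm13648, where Mir429 fell in an exon. Mir200c (chr6:124668340-124668408) and Mir141 (chr6:124667932-124668003) lay on the minus strand in an intron of the non-coding transcript Gm15884. Mir205 (chr1:195333657-195333724, minus strand) lay in an exon of the long non-coding RNA 4631405K08Rik, named Mir205hg in RefSeq. Mir21 (chr11:86397569-86397660, minus strand) lay in the 3′ untranslated part of the last exon of Vmp1, which encodes a membrane protein of autophagy. Mir155 (chr16:84714385-84714449, plus strand) lay in an exon of its own long non-coding host.

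Within 50 kb of these hairpins the vehicle list held 17 peaks and the TGFβ 2 h list 18, each counted once where several hairpins of a cluster lay near it. Each list had 5 peaks that the other lacked, where 1 common base with a peak of the other list was enough to call a peak shared. Their placement was uneven under a grouping of clusters chosen after seeing the data. Both miR-200 family clusters together held 3 vehicle-only peaks among 8 vehicle peaks, and 0 TGFβ 2 h-only peaks among 5 TGFβ 2 h peaks. Mir21 and Mir155 together held 2 vehicle-only peaks among 9, and 5 TGFβ 2 h-only peaks among 13. Over the whole lists the shares were 17.6% vehicle-only and 33.7% TGFβ 2 h-only, and neither group was tested against them. At the miR-200 family the difference, TGFβ 2 h-only minus vehicle-only, was -3. It was 0 within 10 kb. Among peaks that reached the median score of their list it was 2, where 2 shared TGFβ 2 h peaks lost their vehicle partner by that limit. The TGFβ 2 h-only share was 27.8% of the 18 peaks (Wilson 95% interval 12.5% to 50.9%), beside 33.7% of all TGFβ 2 h peaks. The vehicle-only share was 29.4% of the 17 peaks (Wilson 95% interval 13.3% to 53.1%), beside 17.6% of all vehicle peaks. Both intervals hold the share of the whole list. They cover the counting of peaks only and no variation between cultures or libraries. The libraries were not equally deep, with more mapped reads listed for vehicle in the study's reporting summary, and the part of depth in the one-list calls was not tested. No peak of either list overlapped any of the 8 hairpins.

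**Figure D1:**
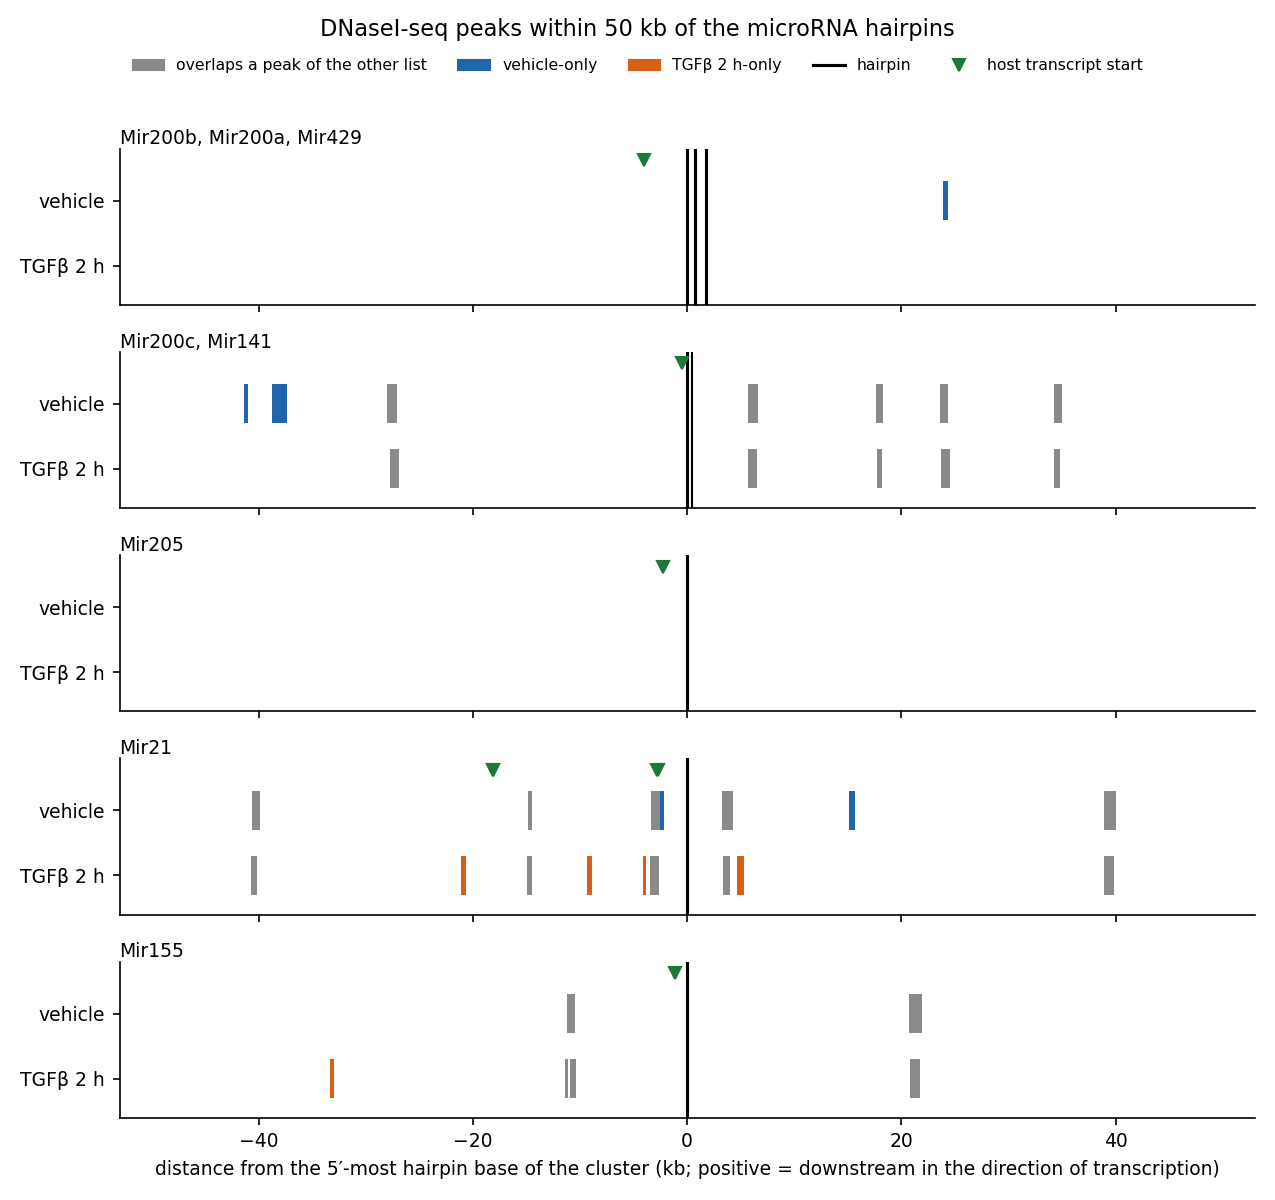
Peaks of the vehicle list (upper track) and the TGFβ 2 h list (lower track) within 50 kb of each cluster, by distance in kb from the 5′-most hairpin base, with hairpins as black lines and starts of host gene transcripts as triangles. Blue (vehicle-only) peaks lie in the first 2 panels and at Mir21, orange (TGFβ 2 h-only) peaks at Mir21 and Mir155, and the Mir205 panel is empty.

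At Mir200b, Mir200a and Mir429 the surroundings were nearly free of peaks. The vehicle list held 1 peak and the TGFβ 2 h list held none. This vehicle-only peak (chr4:155405511-155405934) was 424 bp wide and lay 22.1 kb downstream of Mir429, 23.1 kb from Mir200a and 23.9 kb from Mir200b, over the start of the non-coding transcript Gm16008. Its score of 551 was near the foot of the list, with 1.78% of vehicle peaks scoring lower, on a scale that runs from 540 to a ceiling of 1000. After TGFβ the nearest peak to these hairpins lay 53.9 kb from Mir200b (chr4:155483772-155484477), just outside the window. That peak was shared and stood at the ceiling, with a vehicle counterpart at 53.7 kb. The start of Gm13648, 4.05 kb upstream of Mir200b, was 28.0 kb from the nearest vehicle peak and 49.9 kb from the nearest TGFβ 2 h peak. No peak lay within 1000 bp of a start of the 4 protein-coding genes that begin in this window (Sdf4, Tnfrsf18, Tnfrsf4 and Ttll10). The 300 bases at the midpoint of the only peak near this cluster are given on the plus strand of mm9.
vehicle-only peak downstream of Mir429, chr4:155405573-155405872: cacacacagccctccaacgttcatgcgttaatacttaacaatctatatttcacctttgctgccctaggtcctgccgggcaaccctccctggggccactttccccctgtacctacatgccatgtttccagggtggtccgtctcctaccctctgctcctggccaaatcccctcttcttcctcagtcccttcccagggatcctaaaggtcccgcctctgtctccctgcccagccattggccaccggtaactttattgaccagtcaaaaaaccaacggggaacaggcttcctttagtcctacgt
These and later windows were read for 4 short strings on both strands. The strings were the AP-1 string TGAGTCA or TGACTCA, the E-box CACCTG that ZEB and SNAI repressors recognise, the SMAD box CAGAC and the string AACCNGTT of Grainyhead-like (GRHL) factors of epithelium. None of the strings contains another, although neighbours can share end bases. In the printed windows capitals mark AP-1, E-box and GRHL strings, while the SMAD box is left in lower case because it is so common. This window held none of the 4, and had a GC content of 54.7%.

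At Mir200c and Mir141 the region was rich in peaks that both lists shared. The vehicle list held 7 peaks and the TGFβ 2 h list 5, of which 5 and 5 were shared. The nearest of them stood at the ceiling in both lists, 5.18 kb downstream of Mir141 for vehicle (chr6:124661830-124662756) and 5.20 kb for TGFβ 2 h (chr6:124661845-124662735). It covered the starts of Phb2, a prohibitin gene, and of Emg1, a ribosome assembly factor. The start of Gm15884, only 0.441 kb upstream of Mir200c, lay 6.09 kb from that peak in the vehicle list and 6.11 kb in the TGFβ 2 h list, so neither list had a peak at the annotated start of the host. The other 4 shared pairs lay 17.2 to 33.7 kb downstream within Lpcat3, a phospholipid remodelling enzyme, and 27.1 kb upstream at a start of Atn1.

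Both peaks that differed between the lists at Mir200c and Mir141 were vehicle-only, and both lay upstream. The wider one (chr6:124705814-124707179, 1366 bp, 8 rows, score 914) held another annotated start of Atn1, which encodes the corepressor atrophin 1, 37.4 kb upstream of Mir200c. It was the widest of all peaks near the 8 hairpins, and the nearest TGFβ 2 h peak lay 9703 bp away. The narrower one (chr6:124709398-124709813, 416 bp, 3 rows, score 633) was intergenic, 41.0 kb upstream, and 13287 bp from any TGFβ 2 h peak. In the vehicle list 40.8% of peaks scored below the first and 14.0% below the second. Of the 7 protein-coding genes that start within 50 kb, Atn1, Emg1, Lpcat3 and Phb2 had a peak within 1000 bp of a start in both lists, while Eno2, Grcc10 and Ptpn6 had none in either. For Atn1 the TGFβ 2 h peak was at a different start, 27.0 kb upstream of Mir200c, and the start under the vehicle-only peak had none.

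Mir205 had no peak within 50 kb in either list. The closest was a shared intergenic peak at 57.7 kb in both, with a score of 910 for vehicle (chr1:195274924-195275993) and at the ceiling for TGFβ 2 h (chr1:195274845-195275990). From the start of the host 4631405K08Rik the same pair lay 60.0 kb away in both lists. No protein-coding gene starts in this window, so the empty stretch included no annotated coding promoter.

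**Figure D2:**
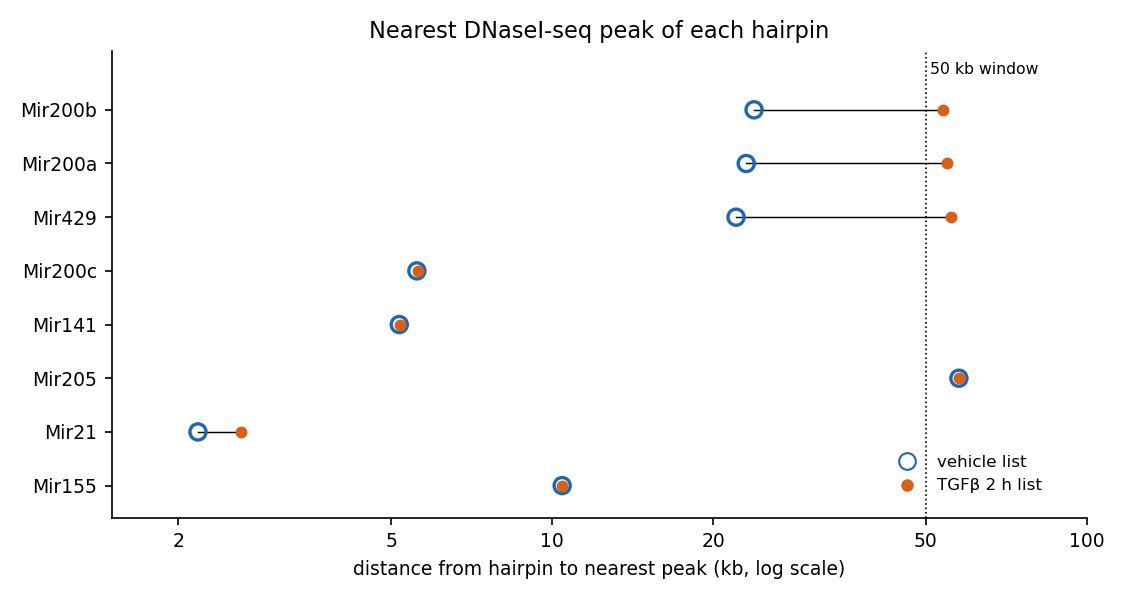
Distance in kb (log scale) from each hairpin to its nearest peak in the vehicle list (open circles) and in the TGFβ 2 h list (filled circles), with the 50 kb window as a dotted line. Only the 3 hairpins at the Mir200b cluster moved across the line, from 22.1 to 23.9 kb for vehicle to 53.9 to 55.7 kb for TGFβ 2 h, whereas Mir200c, Mir141, Mir205 and Mir155 kept nearly the same distance.

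Mir21 had 7 vehicle and 9 TGFβ 2 h peaks, 5 and 5 of them shared. In the TGFβ 2 h list this was the highest count of the 5 clusters, and in the vehicle list it equalled that of Mir200c and Mir141. The hairpin itself was not called open, but a strong shared peak lay close upstream. It reached to within 2.57 kb of the hairpin for vehicle (chr11:86400234-86401022, 789 bp) and 2.62 kb for TGFβ 2 h (chr11:86400275-86401149, 875 bp), at the ceiling in both lists. The peak held the annotated starts of 2 short Vmp1 transcripts, at 2.72 kb and 2.84 kb upstream of the hairpin on the same strand, which end before reaching it. The long Vmp1 transcript that does contain Mir21 starts 99.7 kb upstream, and a shared peak at the ceiling lay over that start in both lists. Further shared peaks were found 3.12 kb downstream, 14.5 kb and 39.9 kb upstream, and 38.8 kb downstream for vehicle. The last of these held the starts of Rps6kb1 (the S6 kinase of mTOR signalling) and Tubd1 (delta-tubulin).

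Of the 5 TGFβ 2 h-only peaks near the 8 hairpins, 4 were at Mir21, on both sides of the hairpin. Downstream, an intergenic peak (chr11:86392373-86392961, 589 bp, score 729) lay 4.61 kb away. Upstream in Vmp1 introns lay a peak at 3.80 kb (chr11:86401459-86401807, 349 bp, score 661), which was within 1000 bp of the short Vmp1 starts. The others upstream lay at 8.93 kb (chr11:86406585-86407055, 471 bp, score 825) and at 20.6 kb (chr11:86418268-86418788, 521 bp, score 626). The first pair sat beside shared peaks, 435 bp and 437 bp from the nearest vehicle peak, and the second pair stood apart at 5058 bp and 5714 bp. In the TGFβ 2 h list 16.5% to 40.8% of peaks scored below these 4, so all 4 scored below the median of their list. The peak at 20.6 kb was also 2.47 kb from the nearest of the Vmp1 starts that lie 18.1 kb upstream of the hairpin.

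Mir21 also had 2 vehicle-only peaks. The one at 2.18 kb upstream (chr11:86399835-86400153, 319 bp, 1 row, score 640) was the nearest peak to the hairpin in either list and crossed an exon of Vmp1. It missed the shared TGFβ 2 h peak next to it by only 122 bp. The other (chr11:86381999-86382562, 564 bp, 4 rows, score 658) was intergenic, 15.0 kb downstream and 9811 bp from any TGFβ 2 h peak. Counting peaks up to 1000 bp apart as shared left 1 of the vehicle-only and 2 of the TGFβ 2 h-only peaks at Mir21, a difference of 1 in place of 2.

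The midpoint windows of 3 TGFβ 2 h-only peaks, both vehicle-only peaks and the nearest TGFβ 2 h peak of Mir21 are given on the plus strand of mm9. They show where the strings fall in the sites that differ between the lists.
TGFβ 2 h-only peak 8.93 kb upstream of Mir21, chr11:86406671-86406970: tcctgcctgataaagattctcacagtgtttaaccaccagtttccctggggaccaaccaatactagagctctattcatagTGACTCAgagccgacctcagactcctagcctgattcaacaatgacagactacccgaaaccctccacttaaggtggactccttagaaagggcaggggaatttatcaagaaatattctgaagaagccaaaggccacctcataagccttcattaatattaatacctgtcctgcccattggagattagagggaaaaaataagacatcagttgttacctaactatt
TGFβ 2 h-only peak 3.80 kb upstream of Mir21, chr11:86401484-86401783: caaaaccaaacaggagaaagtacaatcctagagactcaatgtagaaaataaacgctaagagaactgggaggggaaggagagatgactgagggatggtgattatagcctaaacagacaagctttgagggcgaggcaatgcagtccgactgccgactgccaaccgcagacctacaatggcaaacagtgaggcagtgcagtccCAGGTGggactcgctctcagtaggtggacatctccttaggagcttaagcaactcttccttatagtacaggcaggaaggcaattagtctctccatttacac
TGFβ 2 h-only peak 4.61 kb downstream of Mir21, chr11:86392518-86392817: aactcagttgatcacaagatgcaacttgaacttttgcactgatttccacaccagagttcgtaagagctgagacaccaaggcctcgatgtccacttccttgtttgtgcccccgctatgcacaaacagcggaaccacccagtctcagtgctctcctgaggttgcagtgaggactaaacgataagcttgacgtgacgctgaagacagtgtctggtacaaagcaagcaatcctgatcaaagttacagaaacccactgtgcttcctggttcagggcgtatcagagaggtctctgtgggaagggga
vehicle-only peak 2.18 kb upstream of Mir21, chr11:86399845-86400144: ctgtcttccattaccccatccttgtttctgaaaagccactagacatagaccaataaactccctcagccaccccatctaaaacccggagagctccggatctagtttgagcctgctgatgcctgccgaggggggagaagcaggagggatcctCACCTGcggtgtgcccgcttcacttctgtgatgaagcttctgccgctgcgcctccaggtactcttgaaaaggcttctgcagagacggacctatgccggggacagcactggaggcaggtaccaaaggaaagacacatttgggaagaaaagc
vehicle-only peak 15.0 kb downstream of Mir21, chr11:86382131-86382430: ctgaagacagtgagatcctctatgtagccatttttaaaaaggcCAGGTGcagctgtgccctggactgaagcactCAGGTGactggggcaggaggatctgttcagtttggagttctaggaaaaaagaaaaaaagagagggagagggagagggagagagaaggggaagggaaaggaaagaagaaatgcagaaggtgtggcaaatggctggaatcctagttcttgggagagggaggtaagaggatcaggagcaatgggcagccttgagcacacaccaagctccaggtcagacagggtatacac
shared TGFβ 2 h peak 2.62 kb upstream of Mir21, chr11:86400563-86400862: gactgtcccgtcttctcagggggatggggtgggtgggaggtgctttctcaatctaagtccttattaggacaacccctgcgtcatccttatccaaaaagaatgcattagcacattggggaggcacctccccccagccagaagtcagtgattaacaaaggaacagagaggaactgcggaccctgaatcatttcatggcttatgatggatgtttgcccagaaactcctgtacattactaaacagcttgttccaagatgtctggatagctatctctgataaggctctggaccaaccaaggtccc
The first of these windows held 1 AP-1 string, starting at base 80 of the window and 2 SMAD boxes, in a sequence of 43.0% GC. The second held 1 E-box at base 201 and 2 SMAD boxes. The third held 1 SMAD box and none of the other strings. Each vehicle-only window held the E-box, 1 copy upstream and 2 copies downstream of the hairpin, and neither held an AP-1 string. The window of the shared peak held 1 SMAD box, and over its whole width that peak held 2 GRHL strings. The fourth TGFβ 2 h-only window of Mir21, not printed, held none of the 4 strings.

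Mir155 had 2 vehicle peaks and 4 TGFβ 2 h peaks. Closest to the hairpin, 10.4 kb upstream in both lists, 1 vehicle peak (chr16:84703151-84703949, 799 bp, score 855) was overlapped by 2 TGFβ 2 h peaks. These were a narrow one (chr16:84702990-84703267, 278 bp, score 625) and one at the ceiling (chr16:84703471-84703965, 495 bp). The stretch was intergenic with no transcript start within 1000 bp, and the 300 bases at the midpoint of the second TGFβ 2 h peak had 73.7% GC and 34 CpG. Over its whole width that peak held 1 AP-1 string and 1 E-box. The annotated start of the Mir155 host, 1.12 kb upstream of the hairpin, lay 9.32 kb from the nearest vehicle peak and 9.30 kb from the nearest TGFβ 2 h peak. The remaining shared pair lay 20.7 kb downstream for vehicle, over the start of Mrpl39, a mitochondrial ribosomal protein gene, at the ceiling in both lists.

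The single TGFβ 2 h-only peak at Mir155 (chr16:84681018-84681367, 350 bp, 1 row, score 614) was intergenic, 33.0 kb upstream of the hairpin. It lay 18201 bp from the nearest vehicle peak, the largest such gap among the 5 TGFβ 2 h-only peaks. Its score was low, with 14.3% of TGFβ 2 h peaks below it. Another TGFβ 2 h-only peak (chr16:84663970-84664357, score 801) fell just outside the window, at 50.03 kb. The midpoint window of the peak inside is shown because it is 1 of 2 such windows with an AP-1 string, here at base 240, with a SMAD box at base 222.
TGFβ 2 h-only peak upstream of Mir155, chr16:84681043-84681342: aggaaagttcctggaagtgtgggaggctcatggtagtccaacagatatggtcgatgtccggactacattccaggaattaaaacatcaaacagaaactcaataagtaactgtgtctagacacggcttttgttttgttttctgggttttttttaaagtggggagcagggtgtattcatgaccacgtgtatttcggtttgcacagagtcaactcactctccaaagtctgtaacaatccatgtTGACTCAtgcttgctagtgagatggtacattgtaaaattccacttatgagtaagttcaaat

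**Figure D3:**
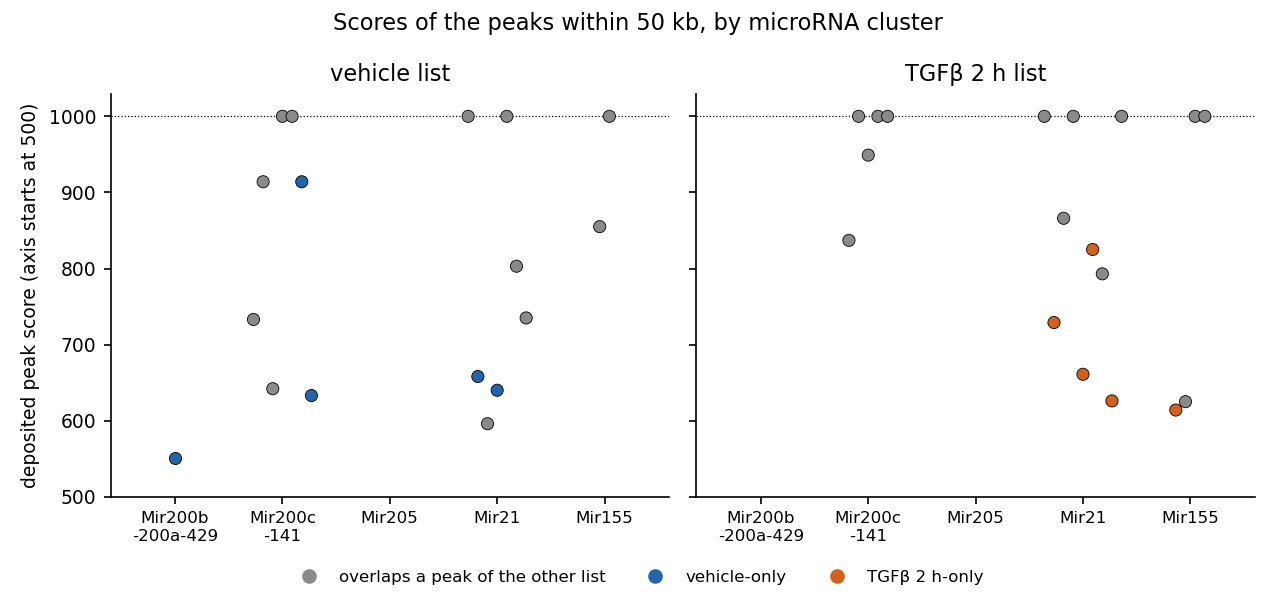
Deposited score of every peak within 50 kb by cluster, in the vehicle list (left) and the TGFβ 2 h list (right), 1 point a peak, ordered by position within a cluster. The dotted line is the ceiling of 1000, and the axis does not start at 0. All 5 vehicle and 8 TGFβ 2 h peaks at the ceiling were shared, and the one-list peaks lie between 551 and 914 for vehicle and between 614 and 825 for TGFβ 2 h. Scores are not comparable between the lists.

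Over all 5 clusters, the median score was 640 for vehicle-only peaks against 884.5 for shared vehicle peaks, and 661 for TGFβ 2 h-only peaks against the ceiling for shared TGFβ 2 h peaks. The ranges overlapped, since the vehicle-only peak at Atn1 (914) and the TGFβ 2 h-only peak 8.93 kb upstream of Mir21 (825) scored above some shared peaks of their lists. None of the 10 one-list peaks stood at the ceiling, against 5 of 12 shared vehicle peaks and 8 of 13 shared TGFβ 2 h peaks. The same held over the whole lists, where 4.96% of vehicle-only and 7.77% of TGFβ 2 h-only peaks stood at the ceiling, against 53.2% and 44.3% of all peaks. The median width near the hairpins was 424 bp for vehicle-only against 805 bp for shared vehicle peaks, and 471 bp for TGFβ 2 h-only against 598 bp for shared TGFβ 2 h peaks. The vehicle-only peak at Atn1, at 1366 bp, was wider than every shared one. Of the 5 vehicle-only peaks, 3 lay within 1000 bp of a transcript start, beside 1 of the 5 TGFβ 2 h-only peaks. Over the whole lists these shares were 23.9% and 14.4%.

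Shared peaks were mostly narrower in the TGFβ 2 h list. In 11 pairs near the hairpins each peak overlapped exactly 1 peak of the other list, and the TGFβ 2 h peak was narrower in 8 of them, or 72.7%, beside 71.0% of 13978 such pairs over the genome. The median ratio of widths, TGFβ 2 h over vehicle, was 0.802 near the hairpins and 0.906 over the genome. The shared peak beside Mir21 at the short Vmp1 starts was 1 of the 3 exceptions, with a ratio of 1.11. The strongest narrowing was at the shared peak 3.12 kb downstream of Mir21, from 1055 bp to 598 bp.

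The strings were then counted in all midpoint windows near the hairpins. AP-1 was found in 2 of the 5 TGFβ 2 h-only peaks, at Mir21 and Mir155, and in 0 of the 5 vehicle-only peaks. Over all peaks of these classes the shares were 34.1% and 9.78%. The E-box was found in 1 TGFβ 2 h-only and 2 vehicle-only peaks, beside 24.0% and 28.7% over the lists. The SMAD box was found in 4 TGFβ 2 h-only and 2 vehicle-only peaks, beside 67.2% and 57.6%. GRHL strings were in none of the 10, and in 1.77% and 2.43% of such peaks over the lists. A match describes letters in a window, not a bound factor, and with 5 peaks a side the shares cannot be told from those of the lists.

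Applying the same rule to every annotated microRNA gene set these counts against a background. Among the 1577 genes, 28.5% had a TGFβ 2 h-only peak within 50 kb and 17% had a vehicle-only peak. Of the 8 members, 2 (Mir21 and Mir155) had a TGFβ 2 h-only peak and 6 had a vehicle-only peak, namely the 5 of the miR-200 family and Mir21. Because the hairpins of a cluster see the same peaks, these 6 genes rest on 5 vehicle-only peaks at 3 clusters. Mir21 was at the upper edge of the distribution, with 18 genes (1.14%) at 4 or more TGFβ 2 h-only peaks. It was equally high in all TGFβ 2 h peaks, with 19 genes at 9 or more. Of the 9 TGFβ 2 h peaks at Mir21, 4 were TGFβ 2 h-only, beside 33.7% over the whole list. At 37 genes (2.35%) there were 7 or more vehicle peaks, as at Mir21, Mir200c and Mir141, and at 59 genes (3.74%) there were 2 or more vehicle-only peaks.

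**Figure D4:**
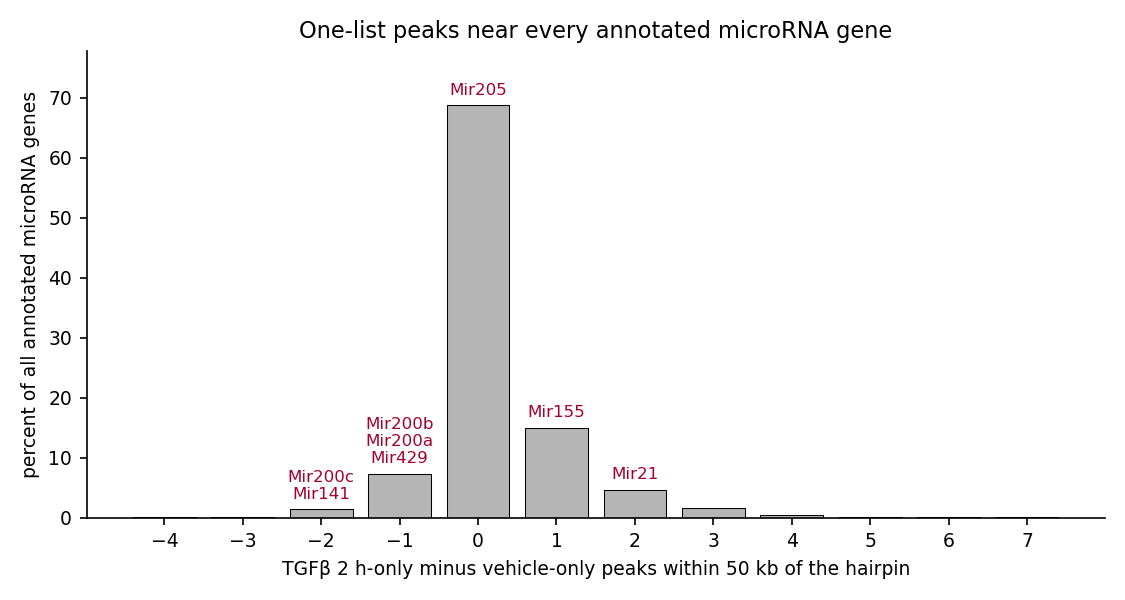
Percent of the 1577 annotated microRNA genes (bars) by the number of TGFβ 2 h-only minus vehicle-only peaks within 50 kb of the hairpin, with the 8 members named above the bar they belong to. Most genes (68.8%) stand at 0, as Mir205 does. Mir155 and Mir21 stand on the positive side at 1 and 2, and the 5 miR-200 family genes on the negative side at -1 and -2.

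Put as a difference, TGFβ 2 h-only peaks outnumbered vehicle-only peaks at 350 of the 1577 microRNA genes and the reverse held at 142. The 5 miR-200 family genes were all among the latter, and Mir21 and Mir155 among the former. Taken singly these differences were small, and each was lost under some setting. That of Mir155 was 0 with windows of 10 or 25 kb and with lists of equal length. That of Mir21 was 0 only around the start of the long Vmp1 transcript that contains it. This start lies 99.7 kb from the hairpin, and its window held none of the Mir21 peaks described above. The Vmp1 starts nearer to the hairpin were not used in that setting. At Mir200c and Mir141 the difference was 0 within 10 or 25 kb. It was 2 among peaks that reached their list's median score, where 2 shared TGFβ 2 h peaks lost their vehicle partner. At Mir200b, Mir200a and Mir429 it was 0 within 10 kb, among peaks that reached the median score and among distal peaks. With the 50 kb window and all peaks, a difference of -2, as at Mir200c and Mir141, was found at 22 genes (1.40%), and a difference of 2, as at Mir21, at 74 genes (4.69%). Proximity differed as well. Over all microRNA genes the median distance to the nearest peak was 50.7 kb in the vehicle list and 38.8 kb in the TGFβ 2 h list, and 60 genes (3.81%) had a peak over the hairpin itself. Mir21, Mir200c, Mir141 and Mir155 lay closer than these medians in both lists and Mir205 farther in both.

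A second list of microRNA genes linked to EMT or TGFβ gave another point of comparison. Of 27 such genes, 25 were found by name in the annotation, and 17 of them had a peak within 50 kb. A TGFβ 2 h-only peak lay near 12 (48.0%, beside 28.5% of all microRNA genes) and a vehicle-only peak near 7 (28.0%, beside 17% of all). A TGFβ 2 h-only peak without a vehicle-only one was seen at 5, namely Mir30a, Mir30c-2, Mir9-2, Mir181a-2 and Mir181b-2, and the reverse at 0. Over all 1577 microRNA genes these shares were 19.2% (303 genes) and 7.67% (121 genes), beside 20.0% and 0 of these 25. Both kinds of one-list peak had a higher share here than over all genes, in counts that were not tested. A vehicle-only peak without a TGFβ 2 h-only one was seen at none of these 25 genes and at all 5 miR-200 family genes. Those 5 genes make up only 2 clusters, and whether they differ from this list was not tested. Mir30a, an EMT-restraining microRNA, had a TGFβ 2 h-only peak over the hairpin itself, while its nearest vehicle peak lay 15172 bp away. The epithelial cluster of Mir183, Mir96 and Mir182 had 2 shared peaks in each list and no one-list peak. The Mir23a, Mir27a and Mir24-2 cluster, like Mir21, was dense, with 8 vehicle and 9 TGFβ 2 h peaks, but its one-list peaks were balanced at 2 and 2. Mir29a and Mir29b-1 had 2 vehicle-only and 1 TGFβ 2 h-only peaks, with the nearest peak 212 bp (vehicle) and 181 bp (TGFβ 2 h) from Mir29a. Members of a cluster share their peaks, so these gene counts overstate the number of separate sites.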

How the data were processed

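DNaseI-seq was measured in NMuMG cells given vehicle or TGFβ1 for 2 h, and the 2 samples were grouped by their titles. Per the labels and the study's methods, nuclei were digested with 75 units of DNaseI for 5 min and fragments of 50 to 300 bp were sequenced. The authors aligned reads to mm9 and called peaks with MACS2 (2.1.2 in the submitters' processing notes) followed by an irreproducible discovery rate step, on reads merged by condition. The options used for DNaseI-seq are not given in the sources used here. The deposited score is a whole number from 540 to 1000, and it was used only to rank a peak inside its own list. The lists hold no read depth and nothing was scaled by it. The study's reporting summary lists clearly more total and mapped reads for the vehicle library than for the TGFβ library. How far this imbalance bears on which peaks were called in only one list was not tested.

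Rows with the same interval were collapsed to 1 peak, a mean of 3.96 rows per peak for vehicle and 3.03 for TGFβ 2 h. The meaning of the repeats is not given in the sources used here. Coordinates are 1-based on mm9. Hairpins and gene models came from GENCODE M1, and a peak's place in a gene was read at its midpoint. Distances run to the nearest end of a peak. Classes of peaks used 1 bp of overlap, so a vehicle-only or TGFβ 2 h-only peak is one not called in the other list, which does not show that signal was absent there. Mature microRNAs came from RefSeq (GRCm38.p6), and 8 of 8 were found in the mm9 hairpins. Strings were matched exactly in 300 bp around peak midpoints, since the lists hold no summits. The nearest peaks, one-list peaks and peaks over a host start were named, and at most 8 windows without untranslated sequence were printed. The members, the further microRNA list and the marker genes were chosen with earlier results of these data known.

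No test was made, because each condition has 1 list. Wilson 95% intervals cover counting of peaks only. Other windows, overlap rules, score limits and counts of rows were tried as alternatives. Python 3.11.15 with pandas 2.3.3, numpy 2.4.6, scipy 1.17.1 and pysam 0.24.0 was used, and the interval steps were tested on simulated data.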

Additional observations from a re-analysis of the deposited data

How the results depend on the processing

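The contrast between the clusters kept its direction under most settings and ended under others. At the miR-200 family, TGFβ 2 h-only minus vehicle-only peaks came to -3, and to -3 again with a 100 kb window, a reciprocal overlap, sharing up to 1000 bp, peaks under 150 bp dropped and those within 1000 bp joined, lists of equal length or host starts as anchors. It was -1 with a 25 kb window or with distal peaks only, and -13 when rows were counted, a unit whose meaning is not stated. It was 0 with a 10 kb window, because the one-list peaks lie farther out. It reversed to 2 among peaks that reached their own list's median score (the ceiling, for vehicle), at Mir200c and Mir141, where all 3 vehicle-only peaks of the family fell below that score and 2 shared TGFβ 2 h peaks lost their vehicle partner by the same limit. Summed over Mir21 and Mir155 the difference, 3, ran from 1 (lists of equal length) to 7 (rows). Its value of 2 at the median score does not rest on the reported peaks, since all 5 TGFβ 2 h-only peaks fell below that score and 2 shared TGFβ 2 h peaks lost their vehicle partner. Singly, Mir155 came to 0 at 10 kb, at 25 kb and with equal lists. Mir21 came to 0 around the start of the Vmp1 transcript that contains it, 99.7 kb away, a window without its reported peaks. Mir200c and Mir141 came to 0 at 10 and 25 kb. The Mir200b cluster came to 0 at 10 kb, at the median score and for distal peaks. Mir205, at 0 as reported, came to 1 with a 100 kb window. These differences, and the settings with distal peaks or host starts, were chosen after seeing the data.

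The counts moved with the window and the unit. In the order vehicle, TGFβ 2 h, vehicle-only and TGFβ 2 h-only, they were 17, 18, 5 and 5 as reported. With other windows they were 4, 6, 1 and 3 at 10 kb, 11, 13, 3 and 4 at 25 kb, and 33, 35, 6 and 7 at 100 kb. At or above the median score the counts were 5, 9, 0 and 4, and by rows 74, 49, 18 and 12. They were 8, 11, 2 and 4 for distal peaks and 14, 14, 3 and 2 around host starts. TGFβ 2 h-only peaks numbered 3 with sharing up to 1000 bp, with joined peaks and with equal lists. The share of all microRNA genes with a TGFβ 2 h-only peak was 16.6% at 25 kb, 42.1% at 100 kb and 32.5% with reciprocal overlap. It was 14.8% at or above the median score and 17.7% with equal lists. Motif shares over the distal one-list peaks all fell with 200 bp windows and rose over whole peaks (AP-1 in TGFβ 2 h-only peaks 27.2% and 45.2%, in vehicle-only peaks 7.69% and 16.8%).

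No paired analysis was possible because there is only 1 list on each side. Read depth and the signal behind each peak are not in the lists, so a peak just under the calling threshold cannot be told from closed chromatin.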
